A study of Mus musculus with 2 samples.

Results

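A group of 10 genes of the lysosome, its proteases and the cystatins that inhibit them was followed across the cell classes of a mouse melanoma. They were taken by symbol, Ctsa, Ctsb, Ctsd, Ctsl, Ctsz, Cstb, Cst3, Lamp1, Cd63 and Npc2, and all 10 were found among the 31053 genes of the matrix. Viable CD45+ cells, the surface marker of white blood cells, had been sorted from tumours of B16F10, a transplantable mouse melanoma line, 2 weeks after injection, and profiled by droplet sequencing of RNA 3′ ends (10x Genomics). One library came from WT mice (LysM-cre x Rel+/+) and the other from mice of the genotype LysM-cre x RelloxP/loxP, which lack Rel in myeloid cells, each from 5 tumours pooled before sorting. Both genotypes therefore carried LysM-cre, which expresses Cre in myeloid cells from the lysozyme locus Lyz2, and Rel encodes the NF-kB subunit c-Rel. Barcodes end in 1 or 2 for their library, but no label in the sources used here ties that number to a genotype. They are therefore named by that number only, no effect of the deletion was read, and with 1 library per genotype no test was possible.

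Lysosomes are acidic compartments in which cells break down engulfed and recycled material. Cathepsins are their proteases, made as inactive precursors and active at low pH, and macrophages, which clear dead cells and debris, are known for a high content of them. Cystatins block cysteine cathepsins, Cst3 mostly outside the cell and Cstb in the cytosol. Many lysosomal genes carry the DNA word CACGTG near their start, the core of the motif read by TFEB and its relatives TFE3 and MITF.

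The members lie on autosomes, with coordinates of the mm10 build. Of the cysteine cathepsins, Ctsb (ENSMUSG00000021939) is at chr14:63122462-63145923 with 10 exons, Ctsl (ENSMUSG00000021477) at chr13:64359337-64370890 with 9 exons, and Ctsz (ENSMUSG00000016256), an enzyme that trims residues from the carboxyl end, at chr2:174427493-174439039 with 6 exons. The aspartic protease Ctsd (ENSMUSG00000007891) is at chr7:142375911-142388038 with 9 exons, and the serine carboxypeptidase Ctsa (ENSMUSG00000017760) at chr2:164832873-164841032 with 16 exons. The inhibitors Cst3 (ENSMUSG00000027447, chr2:148871722-148875692) and Cstb (ENSMUSG00000005054, chr10:78425669-78427622) have 3 exons each. The membrane proteins are Lamp1 (ENSMUSG00000031447, chr8:13159161-13175338, 9 exons) and the tetraspanin Cd63 (ENSMUSG00000025351, chr10:128900989-128912822, 9 exons), and Npc2 (ENSMUSG00000021242, chr12:84754562-84773152, 4 exons) is a soluble carrier of cholesterol. Genes on the other strand overlap Ctsa (Neurl2 and Pltp), Ctsb (Fdft1), Ctsz (Nelfcd), Lamp1 (Grtp1) and Ctsl (Gm47123), and genes on the same strand overlap Ctsd (Gm49369) and Ctsl (Gm49230). Whether counting used strand is not stated, so UMIs of such neighbours may be mixed.

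CACGTG reads the same on both strands. It occurred in the promoters, 250 bases before to 50 after the RefSeq start, of Ctsa, Ctsd, Lamp1 and Ctsl, 4 of the 8 members matched in that table, and in 7.15% of all 32851 promoters (8.09% of 27025 genes). The 8-letter form TCACGTGA, which contains it, was in 2 members and in 0.974% of promoters. One window per gene, 5′ to 3′ on the gene's strand from RefSeq's GRCm38 table with CACGTG in capitals, shows the motif in 4 members whose level was highest in macrophages:
Ctsd, chr7:142387910-142387935, minus strand: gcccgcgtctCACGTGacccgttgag
Ctsa, chr2:164833751-164833776, plus strand: agcaaactgtCACGTGatgcagatgc
Lamp1, chr8:13159123-13159148, plus strand: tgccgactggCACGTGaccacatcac
Ctsl, chr13:64370741-64370766, minus strand: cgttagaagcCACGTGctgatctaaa
The motif starts at position -98 from the start site in Ctsd, -12 in Ctsa, -28 in Lamp1 and -236 in Ctsl. RefSeq's table has 2 promoters for Ctsa. The one shown spans chr2:164833523-164833822, inside the gene as annotated, and the one at the gene's first base, chr2:164832622-164832921, does not hold CACGTG. The windows shown for Ctsd and Ctsl also lie inside their genes as annotated. Lamp1 holds 4 copies in its window, and Ctsd and Ctsa 2 each. The promoters of Cst3, Ctsz, Cd63 and Npc2 do not hold these letters in that window, which says nothing of other sites. The Cd63 promoter searched, chr10:128909095-128909394, lies inside the gene as annotated, away from its first base. No binding was measured here, so a match is only a description.

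Library 1 held 7688 barcodes and 49129318 UMIs, the counts of distinct captured RNA molecules, and library 2 held 10564 barcodes and 73507228 UMIs. After barcodes were filtered, 4904 and 7557 were retained. A barcode was given to a class when it had at least 3 UMIs of at least 2 of that class's markers and the class led the next by 2 times. This gave 470 and 689 macrophage barcodes in libraries 1 and 2, 558 and 627 monocyte, 129 and 59 neutrophil, 31 and 16 dendritic, 726 and 314 lymphoid, and 2049 and 5007 melanoma barcodes. Although the cells were sorted on CD45, 41.8% and 66.3% of retained barcodes were melanoma, and their level of Ptprc, the gene of CD45, was 3.05 and 2.60 CPM (UMIs per 1000000) against 205 to 956 CPM in the 5 immune classes. Since markers set the classes, their levels are a description. Macrophage markers summed to 16057 and 13972 CPM in macrophages against 1046 and 1062 CPM in monocytes, and Cd209a was at 0 in dendritic barcodes of library 2. The 2 libraries shared 3609 barcode sequences, and barcodes that repeated a sequence with over 10 times their UMIs in the other library were left out. Of those, 1709 and 1400 would have been melanoma and at most 12 any other class in a library. Median depth ran from 604 UMIs in neutrophil barcodes of library 2 to 17671 in melanoma barcodes of library 1. Levels below are a gene's UMIs in CPM of all UMIs of its class, not per length, so each is compared within a gene. All intervals are 95% intervals for counting error only.

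**Figure D1:**
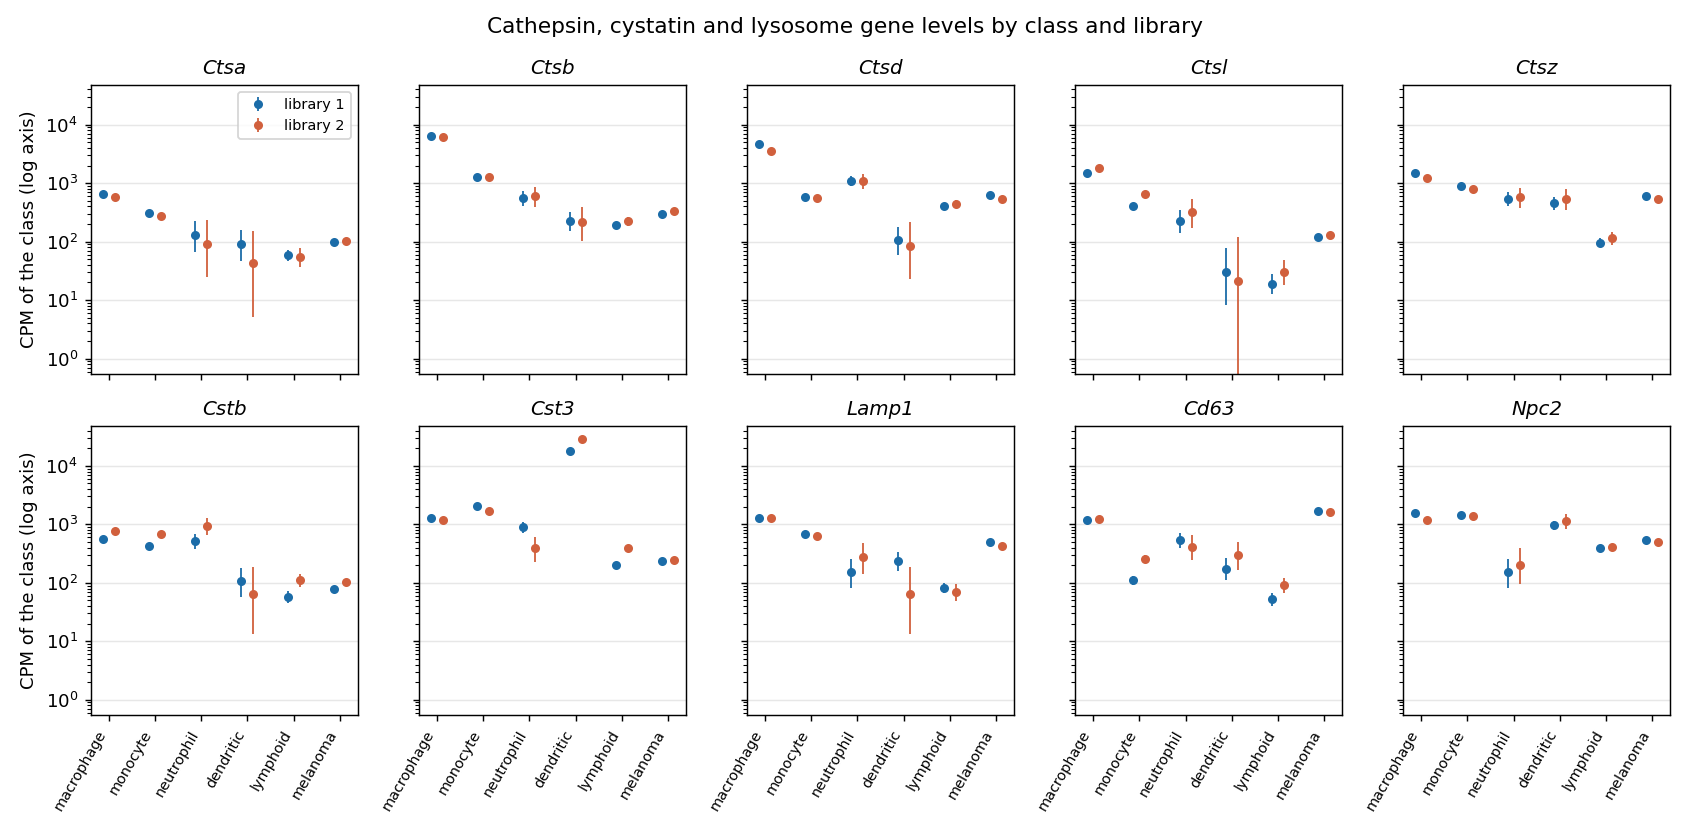
Level of each member (CPM of the class, log axis) in the 6 classes, with points for library 1 and library 2 and bars for the 95% Poisson interval. Ctsa, Ctsb, Ctsd, Ctsl, Ctsz and Lamp1 are highest in macrophage barcodes in both libraries, Cst3 stands at 18083 and 28496 CPM in dendritic barcodes, and Cd63 peaks in melanoma.

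The 10 genes did not share 1 pattern. All 5 cathepsins and Lamp1 had their highest level of the 6 classes in macrophages in both libraries. Cst3 was highest in dendritic barcodes and Cd63 in melanoma barcodes, again in both. Cstb led in macrophages of library 1 and neutrophils of library 2, and Npc2 in macrophages of library 1 and monocytes of library 2. Together the members took 2.07% and 1.90% of macrophage UMIs, of which the 5 cathepsins were 1.48% and 1.33%. In dendritic barcodes they took 2.05% and 3.10%, nearly all of it cystatin (1.82% and 2.86%). The shares were 0.825% in monocytes of either library, between 0.450% and 0.487% in melanoma and neutrophil barcodes, and 0.157% and 0.194% in lymphoid barcodes.

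Ctsb, a protease that can also trim residues from the carboxyl end, had 6490 CPM (6376 to 6605) in macrophages of library 1 and 6066 CPM (5955 to 6179) in those of library 2. Monocytes had 1298 and 1288 CPM, neutrophils 554 and 592, melanoma 300 and 332, dendritic barcodes 228 and 213, and lymphoid barcodes 194 and 225. Macrophages thus stood 5.00 times (4.73 to 5.29) and 4.71 times (4.4 to 5.05) above monocytes, whose intervals were far apart. Of the neutrophil UMIs, 16 of 51 and 7 of 26 came from 1 barcode per library, without which levels were 395 and 443 CPM. Ctsb was widespread among macrophages. In library 1 its level per barcode was 0 at the lowest, 6246 CPM at the median and 24422 CPM at the highest, and in library 2 it was 0, 5810 and 21887 CPM. Barcodes thinned to 1000 UMIs held a Ctsb UMI in 96.0% and 96.8% of macrophages, 66.4% and 64.7% of monocytes, 24.9% and 27.8% of melanoma, and 18.4% and 17.8% of lymphoid barcodes. Without thinning the macrophage shares were 98.3% in both libraries and the lymphoid shares 23.3% and 24.8%, at median depths of 3552 and 2411 UMIs against 1131.5 and 1276.5. Lymphoid barcodes were the class with the lowest share of members in their UMIs. By the estimate from melanoma markers given with Cd63 below, melanoma RNA would be 4.36% and 9.11% of their Ctsb level. How much came from free RNA of other cells was not tested.

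Ctsl, an endopeptidase, had 1502 CPM (1448 to 1558) and 1842 CPM (1780 to 1904) in macrophages. Monocytes had 400 and 659 CPM and neutrophils 228 and 319. Levels were lower in melanoma (118 and 132), dendritic (30.4 and 21.3) and lymphoid barcodes (19.1 and 30.6 CPM). The dendritic values rest on 4 UMIs and 1 UMI, and their intervals overlap those of lymphoid barcodes. Macrophage levels were 3.76 times (3.40 to 4.17) and 2.79 times (2.53 to 3.09) the monocyte levels. Unlike Ctsb it was patchy, with per-barcode medians of 819 and 994 CPM in macrophages and highest barcodes of 15629 and 13441 CPM. After thinning, 54.6% and 62.1% of macrophages held a UMI, and 1.63% and 3.37% of lymphoid barcodes (78.3% and 76.8%, and 2.48% and 3.82%, without thinning).

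Ctsz was spread more evenly over the classes. Its level was 1498 and 1243 CPM in macrophages, 903 and 795 in monocytes, 543 and 569 in neutrophils, 455 and 534 in dendritic, 603 and 532 in melanoma and 95.7 and 113 CPM in lymphoid barcodes. The macrophage level was 1.66 times (1.54 to 1.79) and 1.56 times (1.42 to 1.72) that of monocytes, under the 2 times used for a call. Neutrophil and dendritic intervals overlapped in both libraries, and lymphoid barcodes lay below the rest.

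Ctsd, the main aspartic protease of lysosomes, had 4682 CPM (4586 to 4781) and 3570 CPM (3485 to 3657) in macrophages. The next class was the neutrophils with 1108 CPM (903 to 1345) and 1093 CPM (806 to 1450), above monocytes (578 and 567), melanoma (617 and 539), lymphoid (411 and 447) and dendritic barcodes (106 and 85.4). Of the 14 dendritic UMIs of library 1, 10 came from 1 barcode, without which the level was 32.5 CPM. Its macrophage level was 8.10 times (7.47 to 8.80) and 6.30 times (5.68 to 7.0) the monocyte level. Of neutrophil barcodes thinned to 500 UMIs, 40.3% and 33.9% held a Ctsd UMI, against 17.4% and 22.3% of lymphoid barcodes (45.0% and 44.1%, and 39.9% and 50.6%, without thinning). The unthinned order of these classes turned in library 2, so no order was read from it. Ctsa, which also protects lysosomal sialidase and galactosidase from breakdown, had 649 and 583 CPM in macrophages, 312 and 270 in monocytes, 130 and 91.1 in neutrophils, 97.9 and 101 in melanoma, 91.1 and 42.7 in dendritic and 58.9 and 54.0 CPM in lymphoid barcodes. Its ratio to monocytes was 2.08 (1.84 to 2.35) and 2.17 (1.85 to 2.55), so the intervals include 2. Its dendritic level in library 2 rests on 2 UMIs of 1 barcode.

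Cst3, the secreted inhibitor cystatin C, had 18083 CPM (17364 to 18824) and 28496 CPM (26987 to 30066) in dendritic barcodes. Monocytes had 2089 and 1705 CPM, macrophages 1269 and 1175, neutrophils 890 and 387, lymphoid barcodes 203 and 387, and melanoma 235 and 243 CPM. The dendritic level was 14.2 times (13.5 to 15.1) and 24.3 times (22.6 to 26) that of macrophages, in 31 and 16 barcodes. Every dendritic barcode held Cst3, at 1158 CPM in the lowest, 16886 CPM at the median and 44898 CPM in the highest of library 1, and 15846, 25034 and 45495 CPM in library 2. Barcodes led by Xcr1 or Clec9a, markers of the cross-presenting dendritic subset, had 19451 CPM (16 barcodes) and 26832 CPM (13 barcodes). Those led by Ccr7 or Ccl22, markers of the migratory state, had 16626 CPM (10 barcodes) and 36932 CPM (3 barcodes). The marker rule kept the dendritic class small. When all barcodes were clustered, 1 cluster held 30 of the 31 and 16 of the 16 dendritic barcodes, together with 64 and 108 barcodes of no class, and these had 11329 and 12082 CPM of Cst3. The same cluster held 36 and 18 monocyte barcodes with 5213 and 7708 CPM. Monocyte barcodes elsewhere had 1818 and 1457 CPM, so the macrophage level, 0.607 and 0.689 times that of all monocytes, was 0.698 and 0.807 times that of these.

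Cstb, the cytosolic inhibitor stefin B, separated myeloid classes from the others but not from each other. Macrophages had 572 and 782 CPM, monocytes 431 and 696, and neutrophils 521 (384 to 691) and 934 (670 to 1267) CPM, and the macrophage and neutrophil intervals overlapped in both libraries. Dendritic barcodes had 106 and 64.0 CPM from 14 and 3 UMIs, melanoma 78.1 and 105, and lymphoid barcodes 58.1 and 110 CPM.

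Lamp1, an abundant glycoprotein of the lysosomal membrane, had 1265 CPM (1215 to 1316) and 1266 CPM (1216 to 1318) in macrophages, 677 and 623 in monocytes, 493 and 419 in melanoma, 235 and 64.0 in dendritic, 152 and 273 in neutrophil and 81.0 and 68.5 CPM in lymphoid barcodes. Its ratio to monocytes, 1.87 (1.72 to 2.03) and 2.03 (1.83 to 2.26), lay on the 2-times line and was past it in library 2 alone. Npc2 was as high in monocytes, at 1452 and 1387 CPM, as in macrophages, at 1548 and 1200 CPM, with ratios of 1.07 and 0.865. It had 972 and 1131 CPM in dendritic, 541 and 492 in melanoma, 396 and 411 in lymphoid and 152 and 205 CPM in neutrophil barcodes, and neutrophils were lowest in both libraries.

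Cd63, found in late endosomes and in the pigment organelles of melanocytes, had 1697 CPM (1684 to 1711) and 1611 CPM (1600 to 1621) in melanoma barcodes and 1200 and 1227 CPM in macrophages. Melanoma stood 1.41 times (1.36 to 1.48) and 1.31 times (1.26 to 1.37) above macrophages. Neutrophils had 532 and 410 CPM, dendritic barcodes 175 and 299, monocytes 111 and 261, and lymphoid barcodes 52.3 and 90.1 CPM. Of the 14 dendritic UMIs of library 2, 8 came from 1 barcode, without which the level was 135 CPM. The melanoma markers Pmel, Mlana, Dct and Tyrp1 were seen in the 5 immune classes at 2.23% to 3.19% of their melanoma level in library 1 and 6.0% to 10.7% in library 2. The same share of melanoma Cd63 would be 3.76% and 9.07% of the macrophage level, 37.8% and 44.1% of the monocyte level, and 91.3% and 111% of the lymphoid level. With it subtracted, macrophages had 1186 and 1198 CPM, monocytes 70.6 and 157, and lymphoid barcodes 4.66 and 0 CPM. For the other 9 members in macrophages that share was at most 1.07% and 2.96% of the level. The share was larger for some low levels. In lymphoid barcodes it was 17.1% and 37.9% for Lamp1 and 17.7% and 28.97% for Ctsz. In dendritic barcodes it was 12.95% and 37.9% for Ctsd, 8.71% and 37.04% for Ctsl and 4.67% and 39.3% for Lamp1. In neutrophils it was 11.4% and 25.8% for Npc2 and 10.2% and 42.2% for Cd63. For dendritic Cst3 it was at most 0.0512%. Unless stated, levels and ratios are given without subtracting it.

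**Figure D2:**
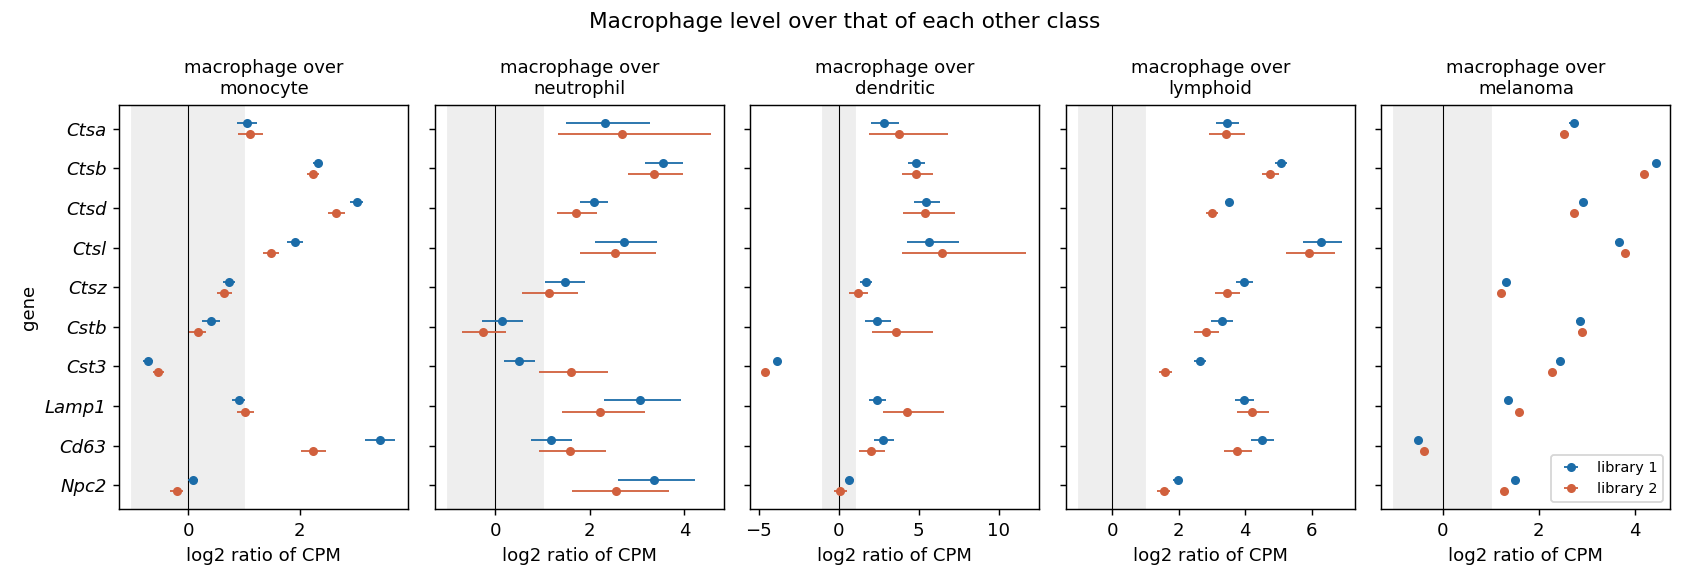
Log2 ratio of the macrophage level over that of each other class (x axes, which differ in range) for the 10 members, with points for the libraries and bars for 95% intervals. The grey band marks less than 2 times; the 10 members lie to its right against lymphoid barcodes, and Cst3 lies far to its left against dendritic barcodes.

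A call needed a level at least 2 times higher in the same class in library 1 and in library 2. Only genes whose 2 classes summed to 50 UMIs or more per library could be called. All 10 members passed that minimum in each comparison. Against monocytes, 5 were called macrophage-higher, Ctsa, Ctsb, Ctsd, Ctsl and Cd63, where 9.09% of all genes were, and 0 were called monocyte-higher (5.44%). Against neutrophils 8 were called, all but Cstb and Cst3, but there 36.0% of all genes were called, and 0 were neutrophil-higher (6.56%). Many of those genes had 0 neutrophil UMIs, and with 3 counts put in place of 0 the share was 18.1%, with the same 8 members. Against dendritic barcodes 8 were called macrophage-higher (15.9% of genes), Cst3 was called dendritic-higher (3.34%), and Npc2 was not called at ratios of 1.59 and 1.06. Against lymphoid barcodes all 10 were called (18.4%, with 7.64% of genes lymphoid-higher), from 2.92 times for Npc2 in library 2 to 78.5 times (53.5 to 120) for Ctsl in library 1. Against melanoma 9 were called (12.9%), all but Cd63, and 0 were melanoma-higher (23.9%). Median log2 ratios of the members were 1.02, 2.13, 3.0, 3.57 and 2.49 against monocyte, neutrophil, dendritic, lymphoid and melanoma barcodes, where all genes tested had 0.12, 0.93, 0.16, 0.01 and -0.41.

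Set between the classes, 87 barcodes of library 1 and 52 of library 2 had both macrophage and monocyte markers, with neither leading by 2 times. Of the members, 8 had levels there between those of monocytes and macrophages in both libraries, as did 16.1% of the 5202 genes tested between these classes. The barcodes were chosen by markers of both classes, so a level in between is a description. Ctsb went from 1298 to 2791 to 6490 CPM in library 1 and from 1288 to 2508 to 6066 CPM in library 2. Ctsd went from 578 to 1616 to 4682 and from 567 to 1209 to 3570 CPM, and Cd63 from 111 to 382 to 1200 and from 261 to 522 to 1227 CPM. Ctsl was already close to its macrophage level, at 1072 and 1579 CPM. Cst3 ran the other way, from 2089 to 1488 to 1269 and from 1705 to 1604 to 1175 CPM. Cstb and Npc2 were the exceptions, with 641 and 1146 CPM of Cstb and 1601 and 1528 CPM of Npc2 in these barcodes, above both classes. Over monocytes Ctsd, Ctsl and Cd63 passed 2 times (1.26% of genes, with 1.55% monocyte-higher), and macrophages passed 2 times over these barcodes for Ctsb, Ctsd and Cd63 (7.00%, with 2.31% lower). Their median depth, 2191 and 1409.5 UMIs, also lay between that of monocytes (1832 and 1035) and macrophages (3552 and 2411).

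**Figure D3:**
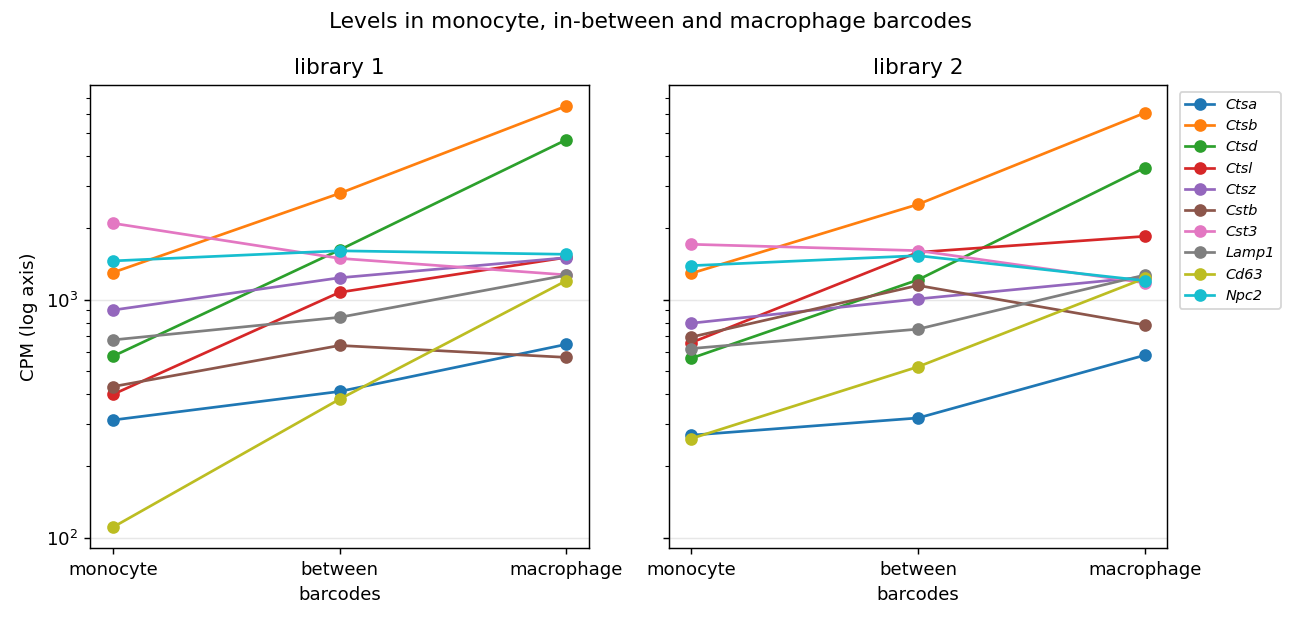
Level (CPM, log axis) of each member in monocyte barcodes, barcodes between the classes and macrophage barcodes, library 1 on the left and library 2 on the right; lines join values of 1 gene. Ctsb, Ctsd and Cd63 climb at both steps, Cst3 declines, and Cstb and Npc2 are highest in the middle.

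Monocytes were split by whether inflammatory genes (Il1b, Thbs1, Cxcl2, Ptgs2) or classical monocyte genes (Plac8, Hp, Chil3, Ly6c2) had more UMIs. Ctsl was 510 against 207 CPM (library 1) and 917 against 402 CPM (library 2), higher in the inflammatory barcodes by 2.47 and 2.28 times, and was the 1 member past 2 times in both (2.35% of genes), and 0 were classical-higher (0.336%). Cstb was 540 against 220 and 860 against 530 CPM, and Ctsd 706 against 355 and 681 against 443 CPM, both inflammatory-higher. Cd63 was 131 against 77.9 and 335 against 181 CPM, higher by 1.68 and 1.85 times. Cst3 was the opposite, with 1786 against 2655 and 1356 against 2053 CPM. Ctsa, Lamp1 and Npc2 had intervals of the ratio that included 1 in both libraries. Macrophages were split at the pooled median of their MHC class II genes, which present antigen. Ctsd was 6216 CPM in barcodes low in class II and 3598 CPM in those high in library 1, but 3620 and 3493 CPM in library 2, where the interval of the ratio included 1. Ctsb was higher in the class II low barcodes of both, 7599 against 5705 and 6404 against 5546 CPM, and Cst3 was lower, 1139 against 1361 and 1078 against 1323 CPM. No member reached 2 times in both libraries (0.169% of genes did for class II low and 0.604% for class II high).

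Within macrophages thinned to 1000 UMIs, barcodes rich in Ctsb tended to be rich in Ctsd, with Spearman's rho of 0.485 (445 barcodes) and 0.448 (626 barcodes), the highest of the 45 pairs of members in each library. The median over the pairs was 0.0728 and 0.0286. Barcodes of a library share its preparation, and these values are a description.

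Plasmacytoid dendritic cells, the interferon-producing relatives set apart by Siglech and other markers (61 and 28 barcodes), differed from the dendritic class in their cathepsins. They had 1645 and 1310 CPM of Ctsl and 1421 and 1248 CPM of Ctsb, where the dendritic class had 30.4 and 21.3 and 228 and 213 CPM. Ctsl was thus near the macrophage level, with overlapping intervals in library 1 (1407 to 1913 against 1448 to 1558) and a lower one in library 2. Their Cst3 was 935 and 780 CPM, and Npc2 was 1684 and 1498 CPM, above the values of the 6 classes but with intervals that overlap the highest of them. Cstb was at 8 UMIs and 0 UMIs, the latter of 32049, and the macrophage markers summed to 29.2 and 343 CPM against 16057 and 13972 CPM in macrophages. Monocyte markers summed to 4352 and 3931 CPM in plasmacytoid barcodes, against 8997 and 10517.5 CPM in monocytes, and neutrophil markers to 38.9 and 1342 CPM. Between the monocyte and plasmacytoid classes lay 22 barcodes.

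Melanoma barcodes were split by hypoxia genes (Pgf, Ero1l, Hspb1, Ndrg1, Egln3). In the top 25% by share of these genes Ctsa was 144 CPM against 84.8 CPM in the rest of library 1, and 163 against 83.3 CPM in library 2, ratios of 1.70 (1.59 to 1.83) and 1.96 (1.86 to 2.07). Cstb was also higher, by 1.47 and 1.39 times. Cd63 was lower, 1261 against 1821 and 1172 against 1735 CPM, and so were Ctsz, 446 against 648 and 382 against 574 CPM, and Ctsd, 485 against 654 and 450 against 564 CPM. Ctsl (0.851 and 0.873 times), Cst3 (0.830 and 0.914) and Lamp1 (0.880 and 0.873) were lower too, by less. Ctsb and Npc2 differed by at most 1.08 times. The median log2 ratio was -0.195 over the members and -0.160 over all genes tested. No member passed 2 times in both libraries (2.80% of genes did upward and 3.91% downward). This top group was shallower, with medians of 15435 against 18526 and 10152 against 12098 UMIs, and the part of depth was not tested. Splits by cycling genes and by interferon genes left every member within 1.36 times in both libraries, where 1.79% and 0.408% of genes passed 2 times upward and 0.306% and 0.00% downward.

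**Figure D4:**
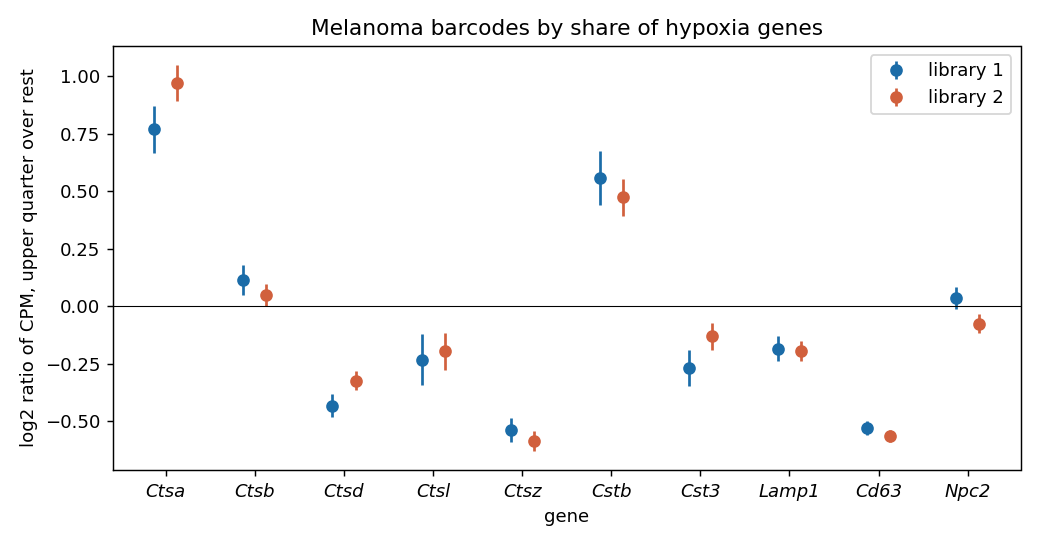
Log2 ratio of the level in the top 25% of melanoma barcodes by share of hypoxia genes over that in the rest, per member, with points for the libraries and bars for 95% intervals. In both libraries Ctsa and Cstb lie above 0, Ctsb just above it, and Ctsd, Ctsl, Ctsz, Cst3, Lamp1 and Cd63 below it.

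Side by side, most members differed by under 2 times between the libraries. Such differences included Cst3, 1.91 times (1.59 to 2.29) higher in library 2 in lymphoid and 1.58 times (1.47 to 1.69) in dendritic barcodes. Ctsl was 1.65 times (1.44 to 1.89) higher in library 2 in monocytes, and Npc2 was 0.775 times (0.734 to 0.819) its library 1 level in macrophages. None of the 10 differed by 2 times in macrophages (1.29% of genes did toward library 2 and 1.96% toward library 1), nor in melanoma (1.84% and 0.511%), nor did any of the 9 tested in lymphoid barcodes (1.06% and 3.95%) or the 3 tested in dendritic barcodes (1.76% and 6.59%). In monocytes Cd63 was 2.35 times (1.86 to 2.99) higher in library 2, where 1.75% of genes were (2.57% in library 1), beside the larger melanoma share given above; after that subtraction it was 70.6 and 157 CPM. In neutrophils Cst3 was 0.435 times (0.242 to 0.739) its library 1 level in library 2, with 9.32% of genes at least 2 times higher in library 1. One neutrophil barcode held 38 of the 82 Cst3 UMIs of library 1, and without it the level fell from 890 to 485 CPM. Cstb was higher in library 2 in 5 of the 6 classes, by 1.34 times (1.28 to 1.40) in melanoma, 1.37 in macrophages, 1.61 in monocytes, 1.79 in neutrophils and 1.89 in lymphoid barcodes, and its 14 and 3 dendritic UMIs gave 0.603 times (0.111 to 2.16). Ctsd in macrophages was 0.762 times (0.739 to 0.787). Genotype, the pooled tumours and the library preparation cannot be told apart in these values. Haemoglobin and Alas2 UMIs, from red cells, summed to 1007 CPM in macrophages of library 1 and 42.9 CPM in those of library 2. Monocytes had 1033 and 26.4 CPM and lymphoid barcodes 821 and 18.0. Neutrophils had 76.0 and 22.8, dendritic barcodes 30.4 and 0, and melanoma 53.4 and 67.0 CPM. The part of these UMIs was not tested.

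**Figure D5:**
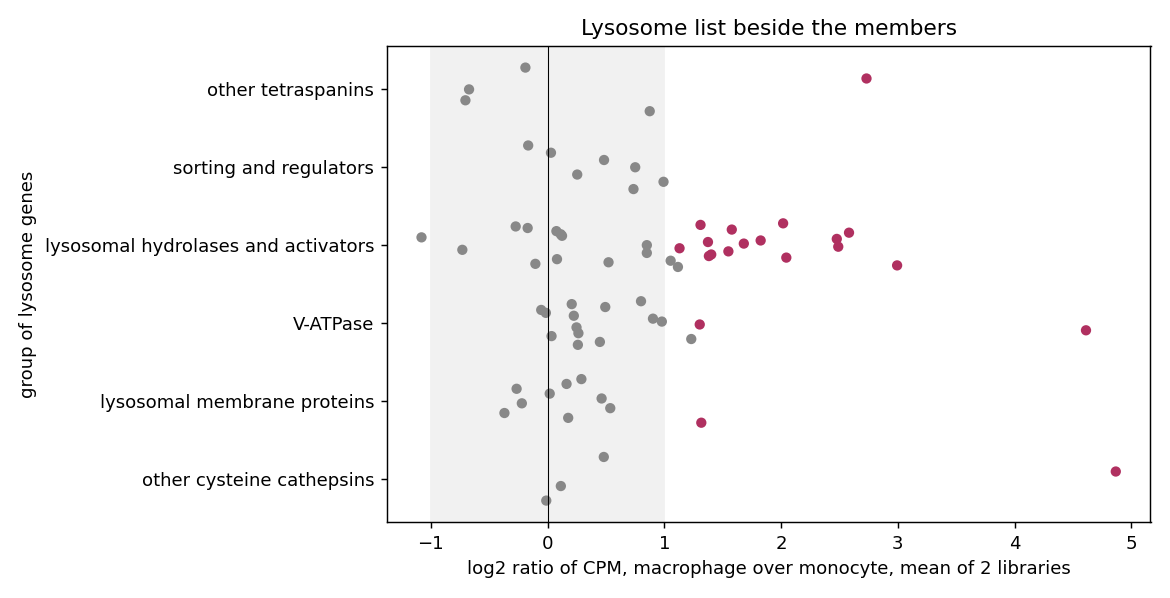
Log2 ratio of macrophage over monocyte level, mean of the libraries, for genes of the lysosome list in their groups; each point is 1 gene, red where it was at least 2 times macrophage-higher in both libraries, and the grey band marks less than 2 times. Hydrolases spread to the right, and most membrane, V-ATPase and sorting genes stay in the band.

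A list of 101 other genes of the pathway was read the same way, of which 99 were found. Against monocytes 71 could be tested, 20 were macrophage-higher (9.09% of all genes were) and 0 monocyte-higher, with a median log2 ratio of 0.48. Hydrolases and their activators made up 15 of the 20, out of 29 tested. Of the V-ATPase, the pump that acidifies lysosomes, 2 of 16 were called, of the membrane proteins 1 of 10, and of the sorting and regulatory genes 0 of 7. The genes at the upper end were Ctsk, the collagen-cleaving cathepsin of osteoclasts, with 28.8 and 29.5 CPM in macrophages against 1 UMI and 0 UMIs in monocytes, and Atp6v0d2, a V-ATPase subunit, with 117 and 157 against 5.54 and 4.39 CPM. The acid phosphatase Acp5 (120 and 68.6 against 19.4 and 5.86 CPM) and the tetraspanin Cd81 (209 and 236 against 29.5 and 36.6 CPM) followed. At the lower end were Lyz2, lysozyme, at 0.509 and 0.440 times, Gm2a at 0.578 and 0.630, Cd37 at 0.619 and 0.612, and Cd53 at 0.642 and 0.613 times the monocyte level.

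Against neutrophils 32 of 71 list genes were called macrophage-higher, beside 36.0% of all genes, and 3 neutrophil-higher. Genes could be tested through macrophage UMIs alone, and 10 of the 32, Ctsk among them, fell under 2 times when 3 counts stood in for 0 neutrophil UMIs, which left 22 (31.0%, beside 18.1% of all genes). The legumain gene Lgmn, which codes for a protease that matures cathepsins, had 992 and 953 CPM against 3 UMIs in each library, and the progranulin gene Grn 1225 and 1511 CPM against 76.0 CPM and 0 UMIs. Tpp1 and Atp6v0d2 had 0 neutrophil UMIs in both, which with 3 counts allowed puts macrophages at least 5.76 and 2.82 times higher for Tpp1 and at least 3.58 and 2.30 times for Atp6v0d2. Stefin A2 like 1, Stfa2l1, a cystatin relative, was the reverse, with 1412 and 1253 CPM in neutrophils against 0 and 0.536 CPM. Cd9 (1086 and 638 against 104 and 93.2 CPM) and Cd37 (206 and 137 against 49.7 and 52.0 CPM) were the other 2, Cd37 from 19 and 6 neutrophil UMIs. In barcodes of at least 1000 UMIs the log2 ratio of Cd37 turned to 0.16, and 0 list genes were neutrophil-higher. Classes were assigned anew under that setting. Its neutrophil class held 36 and 71 barcodes, where the class used here had 15 and 9 of that depth, so most were other barcodes. Neu1 was at 0.609 and 0.405 times, short of a call. Against dendritic barcodes 42 of 70 were called macrophage-higher (15.9% of all genes), led by Lgmn, Cd68, Atp6v0d2 and Lyz2, and 3 dendritic-higher. With 3 counts in place of 0, 30 of the 42 stayed past 2 times (8.69% of all genes). The 3 dendritic-higher genes included Ppt1 (592 and 811 CPM in dendritic barcodes against 185 and 145 CPM in macrophages). Gm2a was another, at 926 and 1131 against 354 and 311 CPM. Ppt1 codes for a thioesterase and Gm2a for a lipid activator. Cd9 was next, at 1.05 and 0.364 times, and was not called.

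Against lymphoid barcodes 55 of 76 were macrophage-higher (18.4% of all genes) and 4 lymphoid-higher. Ctsw, the cathepsin of cytotoxic lymphocytes, had 232 and 223 CPM against 2.09 and 2.14 CPM, and Cst7, which codes for cystatin F, 159 and 130 against 2.09 and 2.68 CPM. Cd82 and Cd37 were the others. Atp6v0d2 and the phagosomal metal transporter Slc11a1 had 0 lymphoid UMIs, so macrophages were at least 52.8 and 29.0 times higher for the first and at least 31.5 and 10.4 times for the second, and Lgmn (112 and 106 times) and Cd68 (196 and 31.8 times) came next. Against melanoma 39 of 88 were macrophage-higher (12.9% of all genes) and 7 melanoma-higher. Ctss, a cathepsin of antigen-presenting cells, had 2191 and 2115 CPM against 4.33 and 8.02 CPM, and Atp6v0d2, Lyz2 and Laptm5 were also over 100 times higher. Melanoma led for the cystatin Cst6 (174 and 248 against 5.23 and 16.1 CPM), Laptm4b (85.2 and 79.5 against 9.41 and 16.6 CPM), the melanocyte regulator Mitf (385 and 246 against 57.5 and 57.3 CPM), Smpd1 (98.2 and 70.6 against 16.7 and 23.6 CPM), Sort1, Cd151 and Atp6v1d.

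Over the 12 points of 6 classes in 2 libraries, the genes whose log2(CPM + 1) followed each member best were sought among 7609 genes. For Ctsa they were Creg1 (Pearson r = 0.953), Rab11fip5 (0.949) and Tubb6 (0.945), and for Ctsb Atp6v0d2 (0.952), Rab11fip5 (0.941) and Gpx3 (0.938). Ctsd was closest to Tns1 (0.946), Pltp (0.922) and Selenop (0.918), and Ctsl to Fam20c (0.964), Hmox1 (0.959) and Lrp12 (0.942). Ctsz went with Sash1 (0.964), App (0.937) and Slc6a6 (0.931). Cstb went with Gng5 (0.978), Slc11a1 (0.957) and Cd300ld (0.952), and Cst3 with Tnni2 (0.959), Htr7 (0.951) and Atox1 (0.948). Lamp1 went with Creg1 (0.937), Hexa (0.935) and Atp6ap1 (0.933). Cd63 had lower values, with Lamtor1 (0.869), Atp6v0a1 (0.866) and Atp6v1g1 (0.864), and Npc2 was followed by Acer3 (0.975), Rp2 (0.961) and Vwa5a (0.958). Among the members, Ctsa and Ctsb were the closest pair at 0.964, and Ctsd and Cst3 the farthest at -0.503. The points share libraries and depth, and r is given as a description.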

How the data were processed

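The authors deposited 1 matrix of UMI counts, made with Cell Ranger on mm10 per the submitters' processing notes, and its header names software version 3.0.2. The counting settings are not given in the sources used here. A barcode was kept from 500 UMIs and 200 genes upward, with mitochondrial UMIs up to 10%. Copies of a barcode between libraries were left out, and so were the 6% of each library with the highest Scrublet doublet scores, since its automatic threshold marked 0.25% and 1.99%. A class also needed marker UMIs per 10000 of at least 0.1 times the 99th percentile of that class's marker level. This scoring rule and the splits of classes were chosen after values were seen, and the members and lists were chosen with earlier results of these data known. Plasmacytoid barcodes also needed Siglech. Of 1159 macrophage and 1185 monocyte barcodes, 73 and 145 scored under 2 times the minimum, and 757 and 677 barcodes had no class.

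Counts were summed by class and library. Levels have exact Poisson intervals, shares of barcodes exact Clopper-Pearson intervals and ratios conditional binomial intervals. A count of 0 was given an upper limit of 3 counts. With 1 library per genotype, and no label that ties library number to genotype, no test was run. All members were named, and of the lysosome list the 4 genes with the highest and the 4 with the lowest ratios in each comparison. Some items are not reported here. Sort1, Cd151 and Atp6v1d were named after their values were seen. The 3 genes most like each member had the highest Pearson r among genes with at least 20 CPM in a point of each library, with members, mitochondrial and ribosomal protein genes left out. Python 3.11.15, numpy 2.4.6, scipy 1.17.1, pandas 2.3.3, scanpy 1.11.5, leidenalg 0.10.2 and matplotlib 3.10.9 were used. Promoters came from RefSeq for 8 members and gene positions from GENCODE.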

Additional observations from a re-analysis of the deposited data

How the results depend on the processing

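No paired analysis was possible because there was 1 library per genotype and no label ties the barcodes to a genotype. Subtracting melanoma RNA, or running without the filter on barcodes, moved no count of calls by over 1.5 times. With at least 1000 UMIs per barcode, 0 lysosome genes were called neutrophil-higher, 0 members were higher in neutrophils of library 1, and 1 was higher in library 2 in dendritic and 1 in lymphoid barcodes. There the log2 ratio of Cd37 between macrophage and neutrophil barcodes turned to 0.16. Classes were assigned anew under that setting. The neutrophil class then held 36 and 71 barcodes, where the main class had 15 and 9 of that depth, so most were other barcodes. With copies kept, 1 member was higher in library 2 in neutrophil and 1 in dendritic barcodes, and 0 in neutrophils of library 1. With doublets kept, 1 lysosome gene was monocyte-higher and 1 member was higher in dendritic barcodes of library 1. A class margin 2 times as wide gave 1 monocyte-higher lysosome gene and 1 member higher in neutrophils of library 2. Classes taken from clusters held no dendritic class, since that cluster went to the monocytes. They gave 1 monocyte-higher member, Cst3, and in library 2 they gave 0 higher members in monocyte, 1 in neutrophil and 1 in lymphoid barcodes. Means over barcodes gave 1 member higher in dendritic barcodes of library 1 and 1 in lymphoid barcodes of library 2. Thinning to 1000 UMIs left fewer counts. Of the lysosome genes, 13 were macrophage-higher against monocytes, 15 against neutrophils, 16 against dendritic and 35 against lymphoid barcodes, and 1 each was monocyte-, neutrophil- and lymphoid-higher. Of the members, 5 were then macrophage-higher against neutrophils, 0 were higher in neutrophils of library 1, and 1 was higher in lymphoid barcodes of library 2. A minimum of 10 UMIs per gene gave 5 neutrophil-higher lysosome genes. Why these counts moved was not tested beyond these settings. Dendritic barcodes were few and neutrophil barcodes few and shallow, and differences under their intervals were not detectable.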
